A study of Homo sapiens with 26 samples.

Results

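The large-subunit proteins of the cytosolic ribosome were followed along the coding sequence (CDS) of their mRNAs in Huh7 cells treated with PF-06446846. Members were chosen by symbol: every transcript in the codon tables whose GENCODE symbol is RPL plus a number, with or without an A, or RPLP0, RPLP1 or RPLP2. The rule as given left out RPL27 and paralogs with an added L. It gave 44 of the 12325 transcripts, of which 11270 had a GENCODE symbol. RPL26 was not among the named transcripts.

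Huh7 is a human hepatoma line, and PF-06446846 is a small molecule that acts on the translating ribosome. In study 1, 18 ribo-seq libraries cover the compound at 1.5 μM and at 0.3 μM and a DMSO vehicle, each after 10 min and after 60 min with 3 replicates. Study 2 holds 2 ribo-seq and 2 mRNA-seq libraries, replicates 4 and 5, for each of 1.5 μM and vehicle after 60 min. In all groups the medium was replaced at the start of treatment, and the cells were harvested in cycloheximide, which arrests elongation.

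The cytosolic ribosome is built from rRNA and ribosomal proteins, and the large subunit carries the peptidyl transferase centre and the tunnel through which the nascent chain leaves. Most ribosomal protein mRNAs begin with a C followed by an unbroken run of C and T, the 5′ terminal tract through which mTOR signalling and LARP1 set their translation together. Ribosomal proteins are made in large amounts in growing cells, hepatoma cells included, and their mRNAs are short and abundant.

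Members took 3.86% to 4.47% of the CDS reads of a ribo-seq library and 4.91% to 5.21% of those of an mRNA-seq library. The libraries held 6414227 to 22224137 CDS reads. Over members and libraries the median count was 11217 reads, against 296 over all transcripts, so counting error was small for members. The counted CDS ran from 26 codons (RPL41) to 352, with a median of 160, against 388 over all transcripts. The line's own markers were present, with AFP between 1447 and 7978 RPKM (reads per kilobase of CDS, scaled to the CDS reads of the library). The 4 immune markers sought were not among the named transcripts, nor was ALB. Of the endothelial and fibroblast markers sought, PECAM1 had 5.20 to 12.1 RPKM and DCN 0 to 23.2, and the others were not among the named transcripts.

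The isoform on which reads were counted limits several members. The tables use the main reference (MANE) isoform for 16 members and another isoform for 28. For 12 the counted CDS holds under 80% of the 28-base windows of the MANE CDS, among them RPL14, RPL23, RPL28, RPL37, RPL27A and RPLP1. Windows across a differing exon junction count as missing, so the share of codons can be higher. In RPL37 23 of the 75 counted codons lie in another reading frame than the MANE CDS, in RPL28 28 of 90 and in RPL14 7 of 125. For 8 members, RPL13A among them, the length of the table does not match the annotated CDS, so their codons were not placed on the MANE isoform. Reads matching several transcripts equally well were kept, and of the 28-base windows of the CDS 100% were shared with other transcripts for RPL36A, 94.1% for RPL41, 78.03% for RPL17 and 56.6% for RPL39. Values for these 4 are uncertain for that reason. For RPL32, RPL10 and RPL31 the shared part was 2.19% to 6.21%, and for the other 37 members it was 0%.

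The starts of the mRNAs are shown first because they carry a feature that most members share and the rule did not use. The sequences below are from RefSeq (GRCh38.p14), 5′ to 3′ on the strand of the gene, from 10 bases before the annotated start, with the tract of C and T in capitals. That start need not be the start of the isoform on which reads were counted. In GENCODE the counted isoform of RPL28 starts at position 55386350 and that of RPLP2 at 810269, downstream of the sequences shown. RPLP1 and RPLP0 had few footprints for their mRNA and RPL12 joined them to a lesser degree. RPLP2 is their stalk partner, RPL24 was at the other end, RPL28 is the one member whose CDS reads were called by edgeR after treatment, and RPL13 has no tract there.
RPLP1, chr15:69452808-69452837, plus strand: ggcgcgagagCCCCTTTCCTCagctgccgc
RPLP0, chr12:120201092-120201121, minus strand: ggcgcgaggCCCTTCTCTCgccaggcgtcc
RPL12, chr9:127451387-127451416, minus strand: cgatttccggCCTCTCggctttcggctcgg
RPLP2, chr11:809957-809986, plus strand: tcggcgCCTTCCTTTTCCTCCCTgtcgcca
RPL24, chr3:101686699-101686728, minus strand: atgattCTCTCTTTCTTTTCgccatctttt
RPL28, chr19:55385922-55385951, plus strand: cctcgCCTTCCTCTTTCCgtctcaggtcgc
RPL13, chr16:89560647-89560676, plus strand: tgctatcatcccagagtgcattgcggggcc

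A tract, searched on the sense strand as a C followed by at least 4 more C or T and starting within 5 bases of the annotated start, was present in 30 of the 36 members with a start in the reference (83.3%). It was present in 2079 of 9100 other genes of the tables (22.8%) and in 16 of 21 small-subunit protein genes. Its median length was 10 bases in members and 6 in the other genes. RPL6, RPL9, RPL10, RPL13, RPL15 and RPL17 had none in this window. A match is a run of letters at an annotated start, and no match says only that these letters were not within that window.

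Footprint levels of members were high. The median member lay between 1832 and 2170 RPKM in the 22 ribo-seq libraries, and the highest member was 4.62 to 9.62 times the lowest within a library. RPL41, the shortest member and a protein of the bridge between the subunits, was highest in vehicle at 60 min, with 5406, 5492 and 7887 RPKM in the 3 libraries. RPL37A followed at 4897 ± 472 RPKM (SD, n = 3), then RPL23 at 3476 ± 130, RPL31 at 3056 ± 77.8 and RPL32 at 2911 ± 523. The range of RPL32 (2487 to 3495) took in that of RPL31 and reached into that of RPL23, so the place of RPL32 is within the spread.

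At the low end stood RPL12 at 985 ± 16.4 RPKM, RPLP0 at 1022 ± 29.8, RPL29 at 1198 ± 261, RPL10A at 1206 ± 137 and RPL13 at 1255 ± 102 (n = 3 each). RPL12 and RPLP0 both belong to the base of the stalk, the flexible arm that recruits translation factors to the ribosome. The ranges of RPL12 (969 to 1002) and RPLP0 (1000 to 1056) overlapped, and so did those of RPL10A and RPL13. The libraries of RPL12 and RPLP0 lay below those of RPL10A and RPL13. RPL29 (896 to 1352) took in RPL12 and RPLP0 and reached into RPL10A and RPL13, so its place is within the spread.

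In the mRNA of the vehicle cells of study 2 the order differed. RPLP1 was highest, with 8259 and 9413 RPKM, RPLP0 had 4942 and 5459, and RPL32 and RPL37A had 4450 ± 204 and 4286 ± 567 (n = 2). RPL41 had 7985 in replicate 4 and 3803 in replicate 5, so its place was not fixed by these libraries. The lowest were RPL7 at 799 ± 45.6, RPL22 at 963 ± 173, RPL5 at 984 ± 96.2, RPL6 at 1221 ± 27.4 and RPL17 at 1239 ± 65.1. RPLP0 was thus near the bottom by footprints and near the top by mRNA.

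Translational efficiency (TE), the footprint RPKM divided by the mRNA RPKM of the same replicate, was lowest for 3 of the 4 stalk proteins. RPLP1 had 1224 and 1253 RPKM of footprints for 8259 and 9413 of mRNA, which is a log2 TE of -2.75 and -2.91 in replicates 4 and 5. RPLP0, the stalk's anchor on the rRNA, had 832 and 790 RPKM of footprints and a log2 TE of -2.57 and -2.79. RPL12, which binds beside it, had 882 and 899 RPKM for 2214 and 2313 of mRNA and a log2 TE of -1.33 and -1.36. In both replicates these 3 were the lowest members, with the mRNA above the footprints in each library. RPLP2, the partner of RPLP1 in the stalk's acidic dimer, stood apart from them at -0.26 and -0.21. Among 27 small-subunit proteins the lowest log2 TE was -2.73 and -2.75, so values this low were not particular to the stalk.

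**Figure D1:**
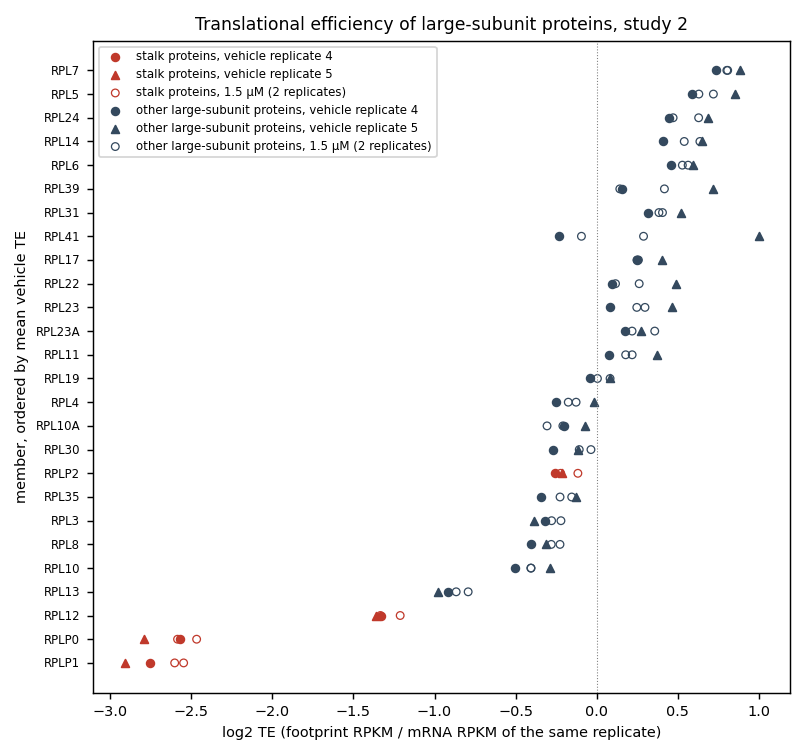
Log2 translational efficiency in study 2 of the members grouped by role and the other members named for TE, with filled points for vehicle replicates 4 and 5 and open points for both replicates of 1.5 μM. RPLP1, RPLP0 and RPL12 sit lowest, RPLP1 at -2.75 and -2.91 in vehicle, while the median of all 44 members was at -0.21 and 0.03.

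RPL13 came next, at -0.92 and -0.98. By the mean of the replicates the highest were RPL7 at 0.73 and 0.88, RPL5 at 0.58 and 0.85, RPL24 at 0.44 and 0.68, RPL14 at 0.41 and 0.65 and RPL6 at 0.46 and 0.59. RPL5, with RPL11, binds 5S rRNA and brings it into the large subunit, and RPL11 had 0.08 and 0.37. RPL24 forms a bridge to the small subunit. Each of the 5 was above 0 in both replicates, and the values in replicate 5 were the higher ones. RPL41 had -0.23 and 1.00, the widest gap between replicates, and was the highest member in replicate 5. RPL39, at 0.16 and 0.72, was above RPL24, RPL14 and RPL6 in that replicate.

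For the other groups by role the values were as follows. The bridge proteins RPL8, RPL23, RPL24, RPL30 and RPL41 ran from -0.41 to 0.44 in replicate 4 and from -0.31 to 1.00 in replicate 5. The tunnel proteins RPL4, RPL17 and RPL39 ran from -0.25 to 0.25 in replicate 4 and from -0.02 to 0.72 in replicate 5. RPL19, RPL22, RPL23A, RPL31 and RPL35, which ring the tunnel's exit, ran from -0.35 to 0.31 and from -0.13 to 0.52. RPL3 and RPL10, which reach towards the peptidyl transferase centre, had -0.32 and -0.50 in replicate 4 and -0.39 and -0.29 in replicate 5. RPL10A, the protein of the L1 stalk beside the exit site for tRNA, had -0.20 and -0.07. The median member was at -0.21 and 0.03 and the median of all transcripts at -0.07 and -0.09, with an interquartile range of 0.52 and 0.78 in members and 1.41 and 1.54 in all.

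The TE of RPLP0, RPL12 and RPLP1 was also read by part of the CDS. In RPLP0 the first, middle and last part of equal length had a log2 TE of -2.46, -2.76 and -2.51 in replicate 4 and -2.52, -2.89 and -2.96 in replicate 5. In RPL12 they had -1.57, -1.34 and -1.13, and -1.37, -1.26 and -1.44. RPLP1 was uneven, with -3.67, -3.15 and -2.02, and -3.84, -3.90 and -1.44. All 3 parts of each gene were below 0 in both replicates. Of the windows of the MANE CDS described above, the counted CDS holds 68.6% for RPLP1 and 85.5% for RPLP0. In codons, the counted CDS has 90 against 115 in the MANE CDS for RPLP1, and 282 against 318 for RPLP0. For both genes all counted codons lie in the MANE CDS and in its reading frame. The part of the isoform in these TE values was not tested.

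Read counts tested with edgeR's quasi-likelihood test (Benjamini-Hochberg adjustment over all transcripts, false discovery rate 0.1) set footprints against mRNA in the vehicle cells. Of 44 members 31 differed, 19 with more and 12 with fewer footprints than mRNA. Over all transcripts 74.6% differed, 36.7% with more and 37.9% with fewer, so the members' count is near the background. RPLP1 had a log2 difference of -2.66 (SE 0.0966, adjusted p = 5.40e-08), with 349 and 360 CPM (counts scaled to the library size) in footprints and 2109 and 2389 in mRNA. RPLP0 (-2.51), RPL12 (-1.18) and RPL13 (-0.78) followed it at the low end, and RPL7 (0.98), RPL5 (0.88), RPL24 (0.74), RPL14 (0.70) and RPL6 (0.69) were the highest. The libraries of both assays did not overlap for RPLP1. In bulk lysates the number of cells and the RNA of each cell cannot be told apart, and the values are relative to all reads of a library. The study calls its replicates biological, but no source used here names separate cultures, so the p-values measure only the spread between these libraries.

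One mRNA-seq library stood apart for short members. In vehicle replicate 5 RPL41 was at 0.476 of its level in replicate 4, RPL38 at 0.705 and RPL39 at 0.727. Among the 10 shortest members, of 92 codons or fewer, 8 were lower in replicate 5 with a median ratio of 0.806. Among the 10 longest 7 were lower with a median ratio of 0.956. The TE of short members therefore rests on few libraries.

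After 10 min of 1.5 μM PF-06446846 footprints of 1 of 44 members rose and none fell, against 0.851% of all transcripts tested. RPL28 had 838, 821 and 755 CPM at 1.5 μM and 588, 497 and 635 in vehicle. All 3 treated libraries lay above all 3 vehicle libraries, and the log2 fold change was 0.49 (SE 0.110, edgeR adjusted p = 0.0893). The call was lost when any of 5 of the 6 libraries was left out, with log2 fold changes of 0.39 to 0.53 in those fits, when the first 15 and last 5 codons were not counted and at a false discovery rate of 0.05. Without vehicle replicate 3, 8 members passed, against 14.9% of all transcripts.

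The next highest were RPL37 (0.49) and RPL29 (0.45), neither called by edgeR, and the lowest were RPL39 (-0.42), RPL24 (-0.39) and RPL10A (-0.19). RPL37 had 763, 769 and 619 CPM at 1.5 μM and 486, 462 and 589 in vehicle. RPL39 had 261, 280 and 249 at 1.5 μM and 256, 536 and 269 in vehicle. The groups of RPL37 did not overlap, and neither did those of RPL10A, whose treated libraries all lay below its vehicle libraries. Vehicle replicate 2 stood high for RPL39 and RPL24, and without it their log2 fold changes were 0.00 and -0.15. Fold changes were positive for 31 of 44 members, with a median of 0.07 against 0.01 over all transcripts. The SD of that member median between libraries was 0.107. At an unadjusted p under 0.05 there were 8 of 44 members and 1953 of 11045 transcripts. With the replicate number as a block 6 members passed, 4 higher and 2 lower, against 10.8% of all transcripts. DESeq2 called 3, RPL28, RPL37 and RPL29, against 4.31%.

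After 60 min of 1.5 μM none of the 44 members passed edgeR's test, where 0.0726% of all transcripts did. Without the block none had an unadjusted p under 0.05, against 242 of 11021 transcripts. RPL28 had 681, 884 and 794 CPM at 1.5 μM and 571, 761 and 698 in vehicle, a log2 fold change of 0.21 with overlapping groups. In each pair of same-numbered libraries, which deviated together at this time, the treated one was higher, and with the replicate number as a block the log2 fold change was 0.22 (SE 0.0716, edgeR unadjusted p = 0.00763, adjusted p = 0.359). RPL37 (0.15) and RPL30 (0.13) followed, and both were also higher in each pair. RPL41 (-0.31), RPL36A (-0.28) and RPL36 (-0.26) were lowest, with RPL41 and RPL36A lower in each pair and RPL36 not. For RPL36 the vehicle libraries had 949, 680 and 728 CPM and the treated ones 621, 694 and 650, so a single vehicle library stood high. Without that vehicle replicate 1 the log2 fold changes of RPL41, RPL36A and RPL36 were -0.14, -0.13 and -0.10, and those of RPL28 and RPL37 were 0.11 and -0.0144. RPL10A had a log2 fold change of -0.16 and did not pass. Its treated library was lower in each pair, and its groups did not overlap. The median fold change was 0.01 in members and -0.00 over all transcripts.

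**Figure D2:**
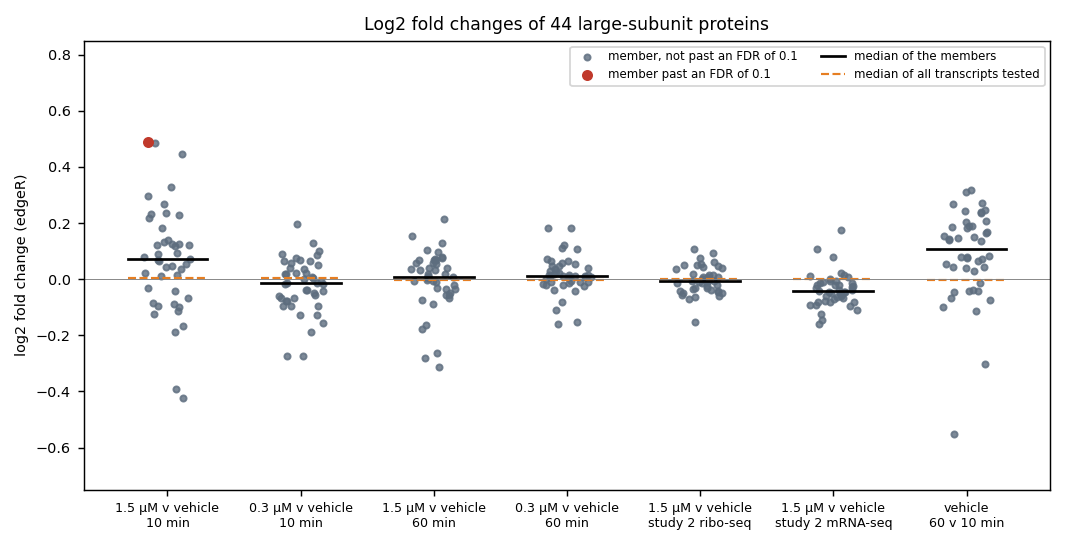
Log2 fold change of CDS reads for each of the 44 members for 1.5 and 0.3 μM against vehicle and for vehicle at 60 against 10 min, as fitted by edgeR, with lines at the medians of members and of all transcripts. Points lie around 0 in each comparison, with RPL28 at 0.49 after 10 min of 1.5 μM as the one member that passed a false discovery rate of 0.1.

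At 0.3 μM no member passed after 10 min or after 60 min, and neither did any other transcript (0% in both). These comparisons use the same vehicle libraries as those at 1.5 μM. At an unadjusted p under 0.05 there were 104 of 11131 and 97 of 11141 transcripts, with no member among them, and DESeq2 called no member. After 10 min RPL34 (0.20), RPL15 (0.13) and RPL22 (0.10) were highest and RPL24 (-0.27), RPL39 (-0.27) and RPL13 (-0.19) lowest, and without vehicle replicate 2 these 3 had -0.0336, 0.15 and -0.0760. After 60 min RPL39 (0.18), RPL30 (0.18) and RPL38 (0.12) were highest and RPL36 (-0.16), RPL36A (-0.15) and RPL11 (-0.11) lowest. Without vehicle replicate 1 the 3 lowest had -0.00230, 0.00422 and -0.0368. Without 0.3 μM replicate 1 RPL39 and RPL38 had -0.0676 and 0.0729. RPL28 had no place among either set.

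Study 2 gave the same treatment after 60 min in other libraries. No member passed in footprints (0.115% of all transcripts did), in mRNA (0%) or in TE (0.0339%). DESeq2 called none either. An unadjusted p under 0.05 was found for 1 of 44 members in footprints, none in mRNA and 1 in TE. Over all transcripts the counts were 335 of 11263, 228 of 11812 and 357 of 11799. RPL10A was lowest in footprints at a log2 fold change of -0.15, with 645 and 701 CPM at 1.5 μM and 733 and 761 in vehicle. RPL17 (-0.07) and RPL12 (-0.06) followed, and RPLP1 (0.11), RPL37 (0.09) and RPL18 (0.08) were highest. RPL10A's treated libraries were both below its vehicle libraries. It did not pass the adjusted test, but did with the replicate number as a block, where 1.15% of all transcripts passed.

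In mRNA RPLP1 (-0.16), RPL12 (-0.15) and RPLP0 (-0.12) were lowest, the 3 members of low TE in vehicle, whose TE uses the same vehicle libraries, and none passed the test. RPL41 (0.17), RPL38 (0.11) and RPL39 (0.08) were highest, and all 3 changed sign without vehicle replicate 5. The median was -0.04 against -0.00 over all transcripts, with 36 of 44 members negative. The SD of that member median between libraries was 0.103, larger than the median. For TE RPLP1 had the largest value, 0.26 (SE 0.107, unadjusted p = 0.0317 from edgeR, adjusted p = 1.00), followed by RPL37 (0.18) and RPLP0 (0.16). RPL41 (-0.19), RPL39 (-0.13) and RPL38 (-0.12) were lowest and again changed sign without vehicle mRNA replicate 5. Without that library RPLP1 and RPLP0 had 0.17 and 0.0876 in TE and -0.0686 and -0.0560 in mRNA. RPL37 had 0.10 in TE without vehicle ribo-seq replicate 5. Without vehicle mRNA replicate 4, RPL41 passed at -0.84, in a fit where 1.08% of all transcripts passed.

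Between 60 and 10 min in vehicle no member and no transcript passed (0%). Fold changes were positive for 33 of 44 members, with a median of 0.11 against -0.00 over all transcripts. The SD of that member median between libraries was 0.104. An unadjusted edgeR p under 0.05 was found for 6 of 44 members and 769 of 11098 transcripts. DESeq2 called no member. RPL34 had 743, 666 and 575 CPM at 60 min and 527, 536 and 529 at 10 min, and RPL28 (0.31) and RPL11 (0.27) followed its log2 fold change of 0.32. RPL34's groups did not overlap. RPL39 (-0.55), RPL24 (-0.30) and RPL35A (-0.11) were lowest, and without vehicle replicate 2 at 10 min they had -0.12, -0.0490 and 0.00539. The difference of the 1.5 μM effect between the times, which shares these vehicle libraries, passed for no member and no transcript (0%). It had an unadjusted p under 0.05 for 4 of 44 members and 506 of 11167 transcripts, and DESeq2 called no member. Its lowest values were RPL41 (-0.65), RPL29 (-0.42) and RPL36 (-0.39) and its highest RPL39 (0.36), RPL24 (0.32) and RPL4 (0.18).

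Other genes of translation were counted beside the members. After 10 min of 1.5 μM 1 of 27 small-subunit proteins rose, RPS28 (log2 fold change 0.75, edgeR adjusted p = 0.0460), and the median was 0.19. None of 19 translation genes known for a C and T tract passed, nor of 30 factors of large-subunit assembly or 6 paralogs. In the other comparisons of treatment or time none of these lists had a call. In vehicle, 60 against 10 min, 22 of 27 small-subunit proteins and 18 of 19 genes of the tract list had positive fold changes, as 33 of 44 members did. The medians were 0.19, 0.20 and 0.11, against -0.00 over all transcripts. The SD of the member median between libraries was 0.104, and these sign counts were not tested.

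After 10 min of 1.5 μM the mean position of footprints along the CDS, in percent of its length, moved earlier in 6 of 44 members and later in none by limma, against 7.23% of all transcripts (6.76% earlier). RPLP1 had a mean position of 52.1%, 49.3% and 52.8% at 1.5 μM and 63.4%, 68.2% and 60.3% in vehicle, a difference of -12.5 percentage points (SE 2.14, limma adjusted p = 0.0422). RPL13, whose libraries had 43.2%, 43.8% and 45.4% against 51.1%, 59.5% and 51.6%, differed by -9.97. RPL41 (-7.96), RPL36 (-6.73), RPL8 (-5.61) and RPL17 (-4.81) were the other calls. For all 6 the treated libraries lay below the vehicle libraries.

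The median difference was -2.25 percentage points in members and -1.19 in all transcripts, and 34 of 44 members were negative. The members' count was not tested against the share of all transcripts, and both depend on single libraries. The count was 0 without 1.5 μM replicate 2, vehicle replicate 1 or vehicle replicate 2 (0.722%, 0.712% and 0.551% of all transcripts), 1 without 1.5 μM replicate 1 (0.787%) and 10 without vehicle replicate 3 (8.88%). With the replicate number as a block it was 2 (2.36%).

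**Figure D3:**
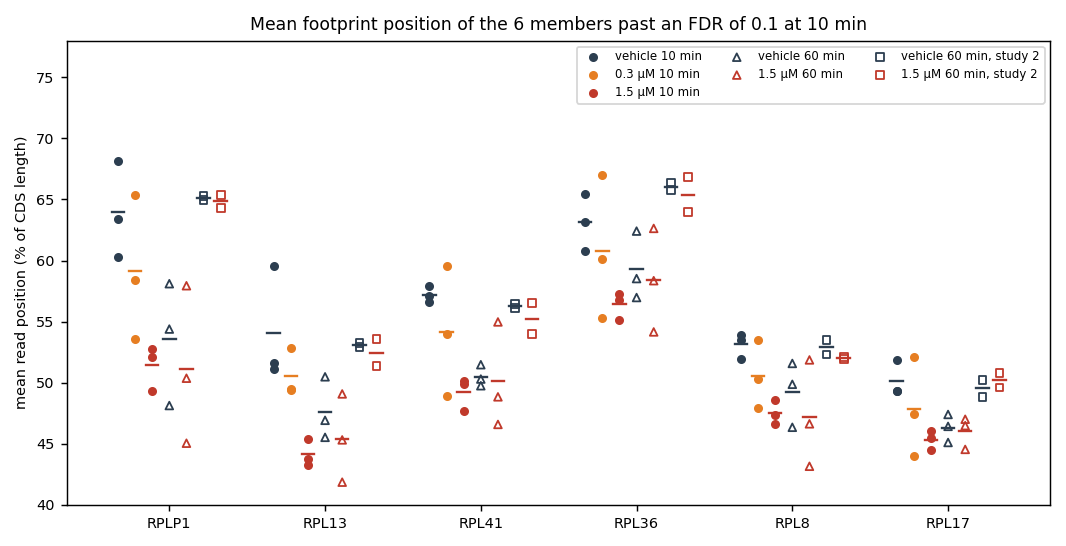
Mean read position, in percent of CDS length, of the 6 members called after 10 min, 1 point for each ribo-seq library by dose and time, with lines at the group means and 0.3 μM at 60 min not drawn. Vehicle at 10 min lies above 1.5 μM at 10 min for each, and for RPLP1 the vehicle mean at 60 min was 53.5%.

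After 60 min no member was called (0.0966% of all transcripts were), nor in study 2 (0%). At an unadjusted p under 0.05 there was 1 of 44 members after 60 min, against 476 of 8279 transcripts, and none in study 2, against 525 of 9299. For RPLP1 the means after 60 min were 51.1 ± 6.48% at 1.5 μM and 53.5 ± 5.04% in vehicle (n = 3), near the value of 1.5 μM after 10 min, 51.4 ± 1.86%. Vehicle after 10 min had the highest mean of the groups of study 1, 64.0 ± 3.95%. In study 2 RPLP1 had 64.8 ± 0.773% and 65.1 ± 0.238% (n = 2). On data simulated for 3 against 3 libraries, with the noise of vehicle at 60 min in study 1, small shifts of the mean position were not recovered. Larger ones were recovered in part. The noise at 10 min and the 2 against 2 libraries of study 2 were not simulated. These counts therefore do not show that shifts were absent. The 6 calls after 10 min are uncertain for another reason, because their number depended on single libraries.

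The divergence of the cumulative read curves (Dmax), which the authors used to place the boundary after which reads were counted, is given here as a description with replicates pooled. After 10 min 3 of 44 members had a Z-score of at least 2, against 3.56% of all transcripts: RPLP1 (3.11, at codon 57), RPL41 (2.27, at codon 14) and RPL13 (2.00, at codon 120). After 60 min there was none (2.72% of all), and none in study 2 (2.27%). With the distance from the bin's mean in SD in place of its root mean square, 2 members passed after 10 min (4.25% of all) and none in the other comparisons. RPL27, outside the rule, had Z-scores of 6.58, 7.88 and 10.8 after 10 min, after 60 min and in study 2, so the counts hold for the members as chosen and not for every large-subunit protein. With treated and vehicle libraries exchanged 7, 3 and 6 members passed, against 4.51%, 3.94% and 2.72% of all transcripts. The exchanged counts were higher than the direct ones in all 3 comparisons.

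Early in the counted CDS, over its codons 2 to 50, density relative to the CDS mean was higher at 1.5 μM after 10 min. The counted isoform lacks the start of the MANE CDS in RPL3, RPL4 and RPL7, and counted codon 18 of RPL4 is codon 112 there. In RPL23A 28 counted codons lie outside the MANE CDS, and in RPL32 18. Their early density in vehicle mRNA-seq was 0.42 and 0.61, and their part in the mean was not tested. RPL4 had the highest density of the members used, 1.81 at 1.5 μM and 1.37 in vehicle after 10 min, and its part in the mean was not tested. Averaged over the 33 members of at least 100 codons it was 0.854 ± 0.0217 at 1.5 μM, 0.809 ± 0.0195 at 0.3 μM and 0.782 ± 0.0164 in vehicle (SD, n = 3). The libraries of 1.5 μM (0.829 to 0.870) did not overlap those of vehicle (0.766 to 0.799), while those of 0.3 μM (0.793 to 0.831) overlapped both. With the median over members in place of the mean, the groups of 1.5 μM and vehicle overlapped after 10 min. Over all transcripts the values were 0.788, 0.683 and 0.665. After 60 min they were 0.822 ± 0.0291 and 0.823 ± 0.0358 in members at 1.5 μM and in vehicle, and in study 2 0.839 ± 0.00774 and 0.831 ± 0.0130 (n = 2). Those groups overlapped. With the median they overlapped after 60 min in study 1, while in study 2 they did not, with 0.833 and 0.849 at 1.5 μM and 0.797 and 0.820 in vehicle.

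**Figure D4:**
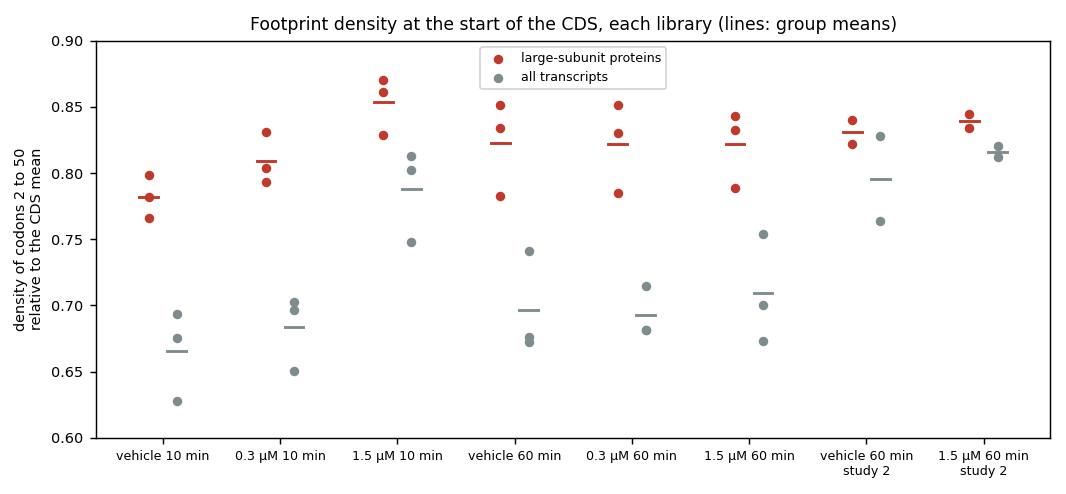
Mean density over codons 2 to 50 of the counted CDS relative to the CDS mean, 1 point for each library, for the 33 members of at least 100 codons and for all transcripts of that length, with lines at the group means. Members at 1.5 μM after 10 min (0.829 to 0.870) lie above vehicle (0.766 to 0.799), and the groups at 60 min overlap.

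Footprints were uneven along the CDS, with peaks at single codons. The highest codon in vehicle at 60 min reached 3.08 to 13.8 times the mean of its CDS, with a median of 7.19 over the 44 members. The first was RPL30, of the bridge to the small subunit, at codon 100 (13.8 ± 3.81), followed by RPL37 at codon 69 (13.3 ± 3.68), RPL27A at codon 63 (13.0 ± 3.43), RPL12 at codon 153 (11.7 ± 3.71) and RPL35A at codon 105 (11.4 ± 4.59; n = 3). The codons of RPL30 and RPL27A were the highest of their CDS in all 22 ribo-seq libraries. Codon 69 of RPL37 holds bases of the stop codon of the MANE isoform, in another frame, and so lies where the end codons left out would be in that isoform. In mRNA-seq the same codon of RPL27A had 1.21 to 1.67 times the mean. Codon 153 of RPL12 was less steady, with 2.22 and 3.79 at 1.5 μM and 3.71 and 4.17 in vehicle in study 2.

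The codons around 2 of these peaks are shown, and around 2 of the largest rises at 60 min, which are read in other libraries below. They are from GENCODE v44 (GRCh38), on the strand of the gene, with the codon in capitals. Codons are numbered on the counted isoform, and codon 63 of RPL27A is codon 120 of the MANE CDS.
RPL27A codon 63, chr11:8685699-8685728, plus strand: aagggaaagctcccaaagCAGcctgtcatc
RPL12 codon 153, chr9:127447901-127447930, minus strand: catcctcatgacatcatcGATgacatcaac
RPL10A codon 139, chr6:35470265-35470294, plus strand: aagttcccttccctgctcACAcacaacgaa
RPL12 codon 78, chr9:127449330-127449359, minus strand: gaggtggtgccttctgccTCTgccctgatc

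The codon with the largest rise at 1.5 μM over vehicle was chosen for each member in the 60 min libraries of study 1, and its values there are only a description. The largest was codon 139 of RPL10A, from 3.36 ± 1.43 to 8.08 ± 1.23 times the CDS mean, a rise of 4.71. Then came codon 105 of RPL35A (a rise of 4.02), codon 37 of RPL13A (3.63), codon 78 of RPL12 (3.39) and codon 51 of RPL37 (3.12). The codon number of RPL13A counts from the start of an isoform with no annotated start, and codon 51 of RPL37 is out of frame with the MANE CDS. RPL35A codon 105 is thus both a peak in vehicle and a rise, and its groups overlapped (9.67 to 19.5 and 6.16 to 14.4).

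Read after 10 min, codon 139 of RPL10A had 4.68 to 8.26 at 1.5 μM and 1.44 to 3.81 in vehicle. Codon 78 of RPL12 had 3.66 to 5.32 and 0.786 to 3.07. Neither pair of groups overlapped, and each gave an exact two-sided permutation p of 0.1, the smallest that 3 against 3 libraries allow. In study 2 codon 139 of RPL10A had 1.02 and 1.54 at 1.5 μM and 1.103 and 1.21 in vehicle, with overlapping groups. Codon 78 of RPL12 had 0.910 and 1.22 at 1.5 μM and 1.29 and 1.43 in vehicle, lower with treatment, and 2 against 2 libraries cannot give an exact p below 0.333.

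Codon 51 of RPL37 was lower with treatment after 10 min, at 7.04 ± 0.992 against 9.53 ± 3.12 (n = 3). Of the 44 codons 42 were higher at 1.5 μM after 10 min, against 81.6% of the codons so chosen in 4436 transcripts with at least 200 reads, and 27 had groups that did not overlap, against 26.7%. Members were read more deeply than those transcripts, with a median of 11217 against 1120 reads, and the part of depth in this was not tested. Without 1.5 μM replicate 2 of the 60 min libraries 17 did not overlap, against 21.7% of all. In study 2 19 of 44 were higher, against 47% of all, and 8 did not overlap, against 17.3%. The counts in study 2 were near the background.

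**Figure D5:**
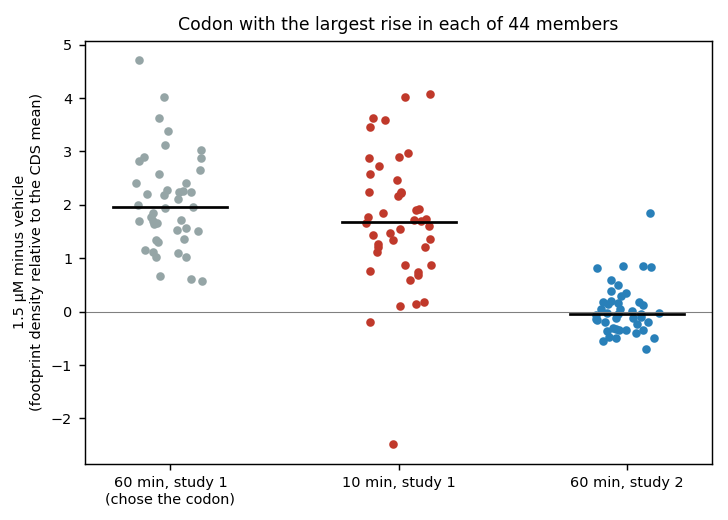
Difference in density, 1.5 μM minus vehicle, in multiples of the CDS mean, at the codon of each member chosen for its rise in the 60 min libraries of study 1 (left), then read after 10 min and in study 2. Lines are medians. After 10 min 42 of 44 lie above 0, and in study 2 19 of 44.

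The studies differed in where member codons held reads. Over 6668 member codons the median correlation of density between libraries was 0.827 within study 1, 0.929 within study 2 and 0.573 between the studies, as a description over codons that share libraries and base composition. Vehicle replicate 2 at 10 min stood apart, with a median of 0.598 against the rest of study 1, followed by 0.3 μM replicate 1 at 10 min (0.710) and vehicle replicate 1 at 60 min (0.727). Each of the 10 min results on member position and codons uses that vehicle library.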

How the data were processed

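Ribo-seq (22 libraries) and mRNA-seq (4 libraries) of Huh7 cells were analysed from read counts at each codon. The authors removed adapters and rRNA reads, chose 1 isoform of each expressed gene with kallisto 0.42.5, aligned with Bowtie 1.1.2, kept reads with 5 or fewer best sites, placed each read at its P-site, and deposited raw counts per codon without normalization. DESeq is also named in the submitters' processing notes.

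Counts were summed per CDS. Groups followed the labels. Differences were tested with edgeR 4.0.16 (filterByExpr, TMM, glmQLFit, glmQLFTest) in R 4.3.3 over all transcripts, with Benjamini-Hochberg adjustment, a false discovery rate of 0.1, only the compared groups in a fit and no block. Mean read position was tested with limma 3.58.1 where each library had 50 reads or more. Dmax used pooled replicates, at least 10 reads, bins of 300 transcripts and the root mean square of the bin. Codon density left out the first and last 5 codons. RPKM, TE and codon values have no test other than the exact permutation tests named. DESeq2 1.42.0, other settings and leaving out each library were alternatives. Python 3.11.15, numpy 2.4.6, pandas 2.3.3 and scipy 1.17.1 were used.

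Members, lists and tests were chosen with earlier results of these data known. Named members were those past the threshold (5 in each direction where over 10), the 3 highest and 3 lowest of each comparison, the 5 highest and lowest by level and TE, the 5 highest peaks and rises, and members grouped by role. Some genes are not reported here by name. No libraries were alike within sampling noise (lowest chi-square per transcript 4.57). Same-numbered libraries deviated together for 1.5 μM at 60 min (correlations 0.368 to 0.503) and for 0.3 μM at both times (0.139 to 0.521), while for 1.5 μM at 10 min 1 pair was at 0.0741. The steps were tested on simulated data. edgeR recovered most of what had been changed. For the mean position, the first size of shift simulated was not recovered at all, and larger sizes were then added: a middle one was recovered in part and a large one mostly. Dmax also passed transcripts that had not been changed.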

Additional observations from a re-analysis of the deposited data

How the results depend on the processing

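Medians of the members kept their direction or moved by less than their spread under all 112 alternatives. That spread, the SD of the member median between libraries, was 0.0395 to 0.113. Except for vehicle at 60 against 10 min it was larger than the median itself. A median could therefore change sign and still count as kept, so this count says little about robustness. The number of members called after 10 min of 1.5 μM, 1, was 0 at a false discovery rate of 0.05, 3 with DESeq2, 2 with no filter on low counts, 0 with the first 15 and last 5 codons left out and 6 with the replicate block, and ran from 0 to 8 when single libraries were left out. The share of all transcripts called moved as well, from 0.851% to 0.263%, 4.31%, 1.05%, 1.41% and 10.8%, and from 0.081% to 14.9% with single libraries left out. In footprints of study 2 the block gave 1 in place of 0 (1.15% of all transcripts in place of 0.115%), and leaving out libraries of study 2 gave 0 to 1 for TE (0.00841% to 1.08% in place of 0.0339%). The block changed no other count of calls by edgeR by over 1.5 times. Calls of mean read position after 10 min, 6, were 2 with at least 20 reads, 2 with the end codons left out and 2 with the block, and 0 to 10 with single libraries left out, against 2.76%, 2.01%, 2.36% and 0.551% to 8.88% of all transcripts. The cause was not tested.

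Early density with the median in place of the mean was 0.802 at 1.5 μM and 0.751 in vehicle after 10 min, 0.774 and 0.829 after 60 min, and 0.841 and 0.808 in study 2. The groups of study 2 then did not overlap, and those at 10 min did, with the lowest library of 1.5 μM and the highest of vehicle both at 0.782. With only members whose counted CDS starts with ATG, an alternative added after seeing the data, it was 0.880, 0.829 and 0.807 at 1.5 μM, 0.3 μM and vehicle after 10 min, and 0.875 and 0.862 in study 2. RPL4, whose counted CDS starts with an ATG inside the MANE CDS, stays in that set. Codons that did not overlap numbered 17 to 34 after 10 min and 5 to 16 in study 2 with single libraries left out, also added later, against 21.7% to 38.1% and 15.4% to 32.8% of all.

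Of the 54 values of the 3 highest and 3 lowest members in the 9 comparisons of treatment or time, 43 moved by over 1.5 times with some library left out. Named members changed sign only with a library left out, and their log2 fold changes then ran as follows. For RPL39 they ran from -0.61 to 0.00295 (1.5 μM, 10 min), from -0.46 to 0.15 (0.3 μM, 10 min), from -0.0676 to 0.40 (0.3 μM, 60 min) and from -0.0724 to 0.58 (difference between times, also -0.0120). For RPL37 they ran from -0.0144 to 0.28 (1.5 μM, 60 min), for RPL36A from -0.23 to 0.00422 (0.3 μM, 60 min), and at 0.3 μM after 10 min for RPL13 from -0.39 to 0.0282 and for RPL22 from -0.13 to 0.29. For RPL35A they ran from -0.18 to 0.00539 (vehicle, 60 against 10 min) and for RPL12 from -0.13 to 0.00420 (footprints of study 2). In mRNA of study 2 RPL39, RPL38 and RPL41 ran from -0.14 to 0.34, -0.13 to 0.39 and -0.27 to 0.82, and for TE from -0.39 to 0.0861 (also 0.0264), -0.40 to 0.11 and -0.84 to 0.25, both ends set by the vehicle mRNA libraries. Leaving out a library of study 2 leaves 1 in a group, assumed to vary like the others.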
